A study of Sus scrofa with 6 samples.

Results

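The results concern 5 candidate miRNAs of pig jejunum, out of 256 candidate sequences and 533 sequences in all, across 6 small RNA libraries. They are SSC6_13802, SSC13_1737, SSCM_18120, SSC9_17050 and SSC18_6061, temporary names in which the first part gives the chromosome. They were selected on measured values, namely the ratio of the weaning to the suckling level, which had the same direction on 2 or 3 of the days studied. The 3 candidates SSC6_13802, SSC13_1737 and SSCM_18120 stood at 2.23 to 6.96 times the suckling level after weaning on every day, SSC9_17050 stood at 2.36 and 2.02 times on days 4 and 7, and SSC18_6061 at 0.549 to 0.728 times. These are ratios by library total. With the TMM scaling described further on, the first 3 stood at 1.79 to 3.90 times, SSC9_17050 at 1.32 and 1.67 times, no longer 2-fold, and SSC18_6061 at 0.308 to 0.581 times. Since these ratios chose the candidates, they are given as a description, with no test.

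The animals were Duroc x Yorkshire x Landrace barrows, and the tissue was jejunum, lysed as 3 cross-sections per piglet. Weaning libraries W1, W4 and W7 came from piglets taken from the sow at 25 d of age and fed a commercial diet for 1, 4 and 7 d, so these piglets were 26, 29 and 32 d old. Suckling libraries S1, S4 and S7 came from piglets of the same ages that had stayed with the sow. By the paper, the litters housed with their sows had free access to ground pre-starter feed, so milk was not the only food before weaning. For each library the RNA of 4 piglets was pooled, 1 from each of 4 litters in the weaning pools. Pooling lessens the effect of differences between piglets but does not remove it, and its size cannot be read from a pool. Each condition thus had 1 library, and no weaning to suckling ratio below has a replicate check. The table totals lay between 4441416 reads (W7) and 5373146 reads (S7), which makes 1 read worth 0.186 to 0.225 CPM (reads per 1000000 reads of the library total).

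An animal miRNA is cut from a hairpin precursor, first in the nucleus and then in the cytoplasm, and guides a silencing complex to messenger RNAs. Pairing is led by the seed, bases 2 to 8 of the mature strand, so miRNAs with the same seed share many predicted targets. A candidate is a sequence that a program such as miRDeep proposes as a miRNA from the way reads stack on a predicted hairpin, without an entry in the miRNA database. In the gut, miRNAs are known to act in epithelial renewal, barrier function and immune responses, all of which are challenged when a piglet loses milk and is left with solid feed.

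The mature sequences are shown first because 3 of the 5 resemble another sequence in the same libraries, which bears on every count below. They are written 5′ to 3′ with the seed in capitals.
SSC6_13802: uGUGUGUGggcgccggacgcc
SSC13_1737: uGUAGCUGuggcauagaccucag
SSCM_18120: aUGGAAUGcuuguuuugguug
SSC9_17050: cUAGACUUggaggcagaagg
SSC18_6061: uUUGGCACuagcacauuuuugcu
No seed was shared between any pair of the 5. The seed of SSC6_13802 alternates G and U and is also that of mouse miR-466d-5p, the seed of SSC18_6061 is that of human miR-96-5p, and that of SSCM_18120 was matched to ppc-miR-2242 of a nematode. SSC13_1737 and SSC9_17050 were given no miRNA with the same seed. Their lengths were 20 to 23 nt, against a median of 21 nt among all 256 candidates. GC content ranged from 38.1% in SSCM_18120 and 39.1% in SSC18_6061 to 76.2% in SSC6_13802, with 52.2% in SSC13_1737 and 55% in SSC9_17050, around a candidate median of 57.1% and a median of 47.6% for 239 known miRNAs. Of the 5, 3 began with U, compared with 45.3% of the candidates.

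Positions in build 9.2 of the draft pig genome were at hand for 3 of them. The precursor of SSC6_13802 lay at chr6:255402-255460 (59 bases), that of SSC18_6061 at chr18:17171995-17172060 (66 bases) and that of SSCM_18120 at chrM:15434-15487 (54 bases), on the mitochondrial genome. Mitochondrial transcripts do not pass through the nuclear enzyme that cuts miRNA precursors, and whether SSCM_18120 is cut from a hairpin was not tested. The gene or region at these positions was not looked up, because the gene table used here follows another build.

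All 5 had reads in each of the 6 libraries and stood on 1 row of each table. Over the 6 libraries, SSC18_6061 had 923 reads, SSC6_13802 had 785, SSCM_18120 had 664, SSC13_1737 had 366 and SSC9_17050 had 147, which placed them 13, 17, 19, 28 and 37 among the 256 candidates, whose median was 12.5 reads. All candidates together took 67341 of 28772629 reads, or 0.234%, so even the best of these sequences was rare beside known miRNAs, whose median was 1995 reads. The 5 made up 2.83% to 4.26% of the candidate reads in the suckling libraries and 3.84% to 5.67% in the weaning libraries, ranges that overlap. Within each day the weaning share was above the suckling share, which draws on the ratios by which the 5 were chosen.

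SSC6_13802 had 36 reads in S1, 54 in S4 and 71 in S7, and 112 in W1, 250 in W4 and 262 in W7. As levels these were 8.01, 10.2 and 13.2 CPM in the suckling pools and 24.1, 55.5 and 59.0 CPM in the weaning pools. Every weaning pool thus lay above every suckling pool, and W1 lay well below W4 and W7. The exact 95% Poisson intervals, which cover counting error only, of neighbours in that order overlapped among the suckling pools and between W4 and W7, and were apart between S7 and W1 (upper bound 16.7 CPM and lower bound 19.8 CPM) and between W1 and W4. The weaning level was 3.01-fold that of suckling on day 1 (log2 ratio 1.59, 95% counting interval 1.03 to 2.17), 5.46-fold on day 4 (2.45, 2.02 to 2.90) and 4.46-fold on day 7 (2.16, 1.78 to 2.56).

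SSC13_1737 was read 32 times in S1, 31 in S4 and 27 in S7, against 74 in W1, 105 in W4 and 97 in W7. The suckling pools stood at 7.12, 5.84 and 5.02 CPM and the weaning pools at 15.9, 23.3 and 21.8 CPM. The step from S1, the highest suckling pool, to W1, the lowest weaning pool, was the 1 gap between neighbours whose counting intervals did not overlap (upper bound 10.1 CPM and lower bound 12.5 CPM). Its log2 ratios were 1.16 (0.54 to 1.81) on day 1, 2.00 (1.41 to 2.63) on day 4 and 2.12 (1.49 to 2.79) on day 7. Among the weaning pools W4 was 1.46 times W1 (1.08 to 2.00) by library total, and the log2 difference of 0.55 became 0.09 with another scaling, given below.

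SSCM_18120, the mitochondrial sequence, had 24 reads in S1, 60 in S4 and 51 in S7, and 71 in W1, 354 in W4 and 104 in W7. The corresponding levels were 5.34, 11.3 and 9.49 CPM after suckling and 15.3, 78.6 and 23.4 CPM after weaning. One pool, W4, stood far above the other 5, while W1 exceeded S4, the highest suckling pool, by a log2 difference of 0.44 with overlapping intervals (11.9 to 19.3 against 8.62 to 14.5 CPM). W4 was 5.15 times W1 (3.98 to 6.74), and W7 was 0.298 times W4 (0.237 to 0.372). The suckling pools differed too, S4 being 2.11 times S1 (1.30 to 3.55). Its log2 ratios were 1.52 (0.83 to 2.25) on day 1, 2.80 (2.40 to 3.22) on day 4 and 1.30 (0.81 to 1.82) on day 7. Without W4 the log2 ratio of the mean weaning to the mean suckling level was 1.15 in place of 2.17, so 1 pool carried much of the average.

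SSC9_17050 was the rarest, with 17 reads in S1, 17 in S4 and 21 in S7, and 23 in W1, 34 in W4 and 35 in W7. These are 3.78, 3.20 and 3.91 CPM against 4.95, 7.55 and 7.88 CPM. The weaning pools were all above the suckling pools, but the counting intervals of all 5 pairs of neighbours in the order overlapped, W1 with S7 included. The day 1 pair held 40 reads, under the minimum of 50 used for ratios, and its log2 ratio of 0.39 had an interval from -0.58 to 1.38. The log2 ratio was 1.24 (0.36 to 2.17) on day 4 and 1.01 (0.19 to 1.87) on day 7.

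SSC18_6061 was the 1 sequence of the 5 that was lower after weaning. It had 166 reads in S1, 234 in S4 and 196 in S7, against 125 in W1, 109 in W4 and 93 in W7, or 36.9, 44.0 and 36.5 CPM against 26.9, 24.2 and 20.9 CPM. The 3 weaning pools lay below the 3 suckling pools, with W1 and S7 as the nearest neighbours and their intervals just overlapping (22.4 to 32.0 against 31.5 to 42.0 CPM). The log2 ratio was -0.46 (-0.81 to -0.12) on day 1, -0.86 (-1.21 to -0.53) on day 4 and -0.80 (-1.17 to -0.44) on day 7, so by library total it was less than 2-fold lower on each day. It was also the steadiest within a feeding group by library total, though with TMM scaling, described further on, SSC9_17050 was steadier. The log2 range of SSC18_6061 over the pools was 0.27 for suckling and 0.36 for weaning by library total. The medians over the 108 sequences with 100 to 1000 reads in all were wider, at 0.52 and 0.84. With 923 reads SSC18_6061 stood near the top of that band, where counting error is smaller. With TMM its ranges were 0.48 and 0.61, and no medians were set beside them. In contrast, SSCM_18120 had the fourth widest weaning range of those 108, at 2.36.

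**Figure D1:**
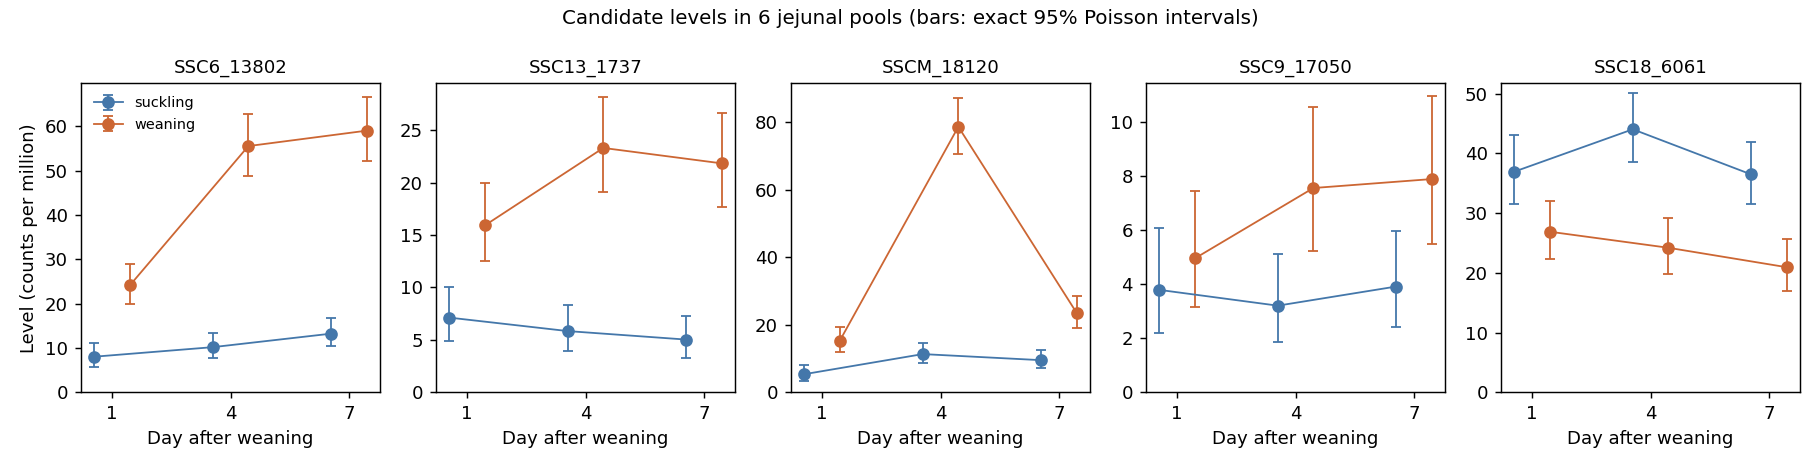
Level in CPM (vertical axes from 0, a scale of its own in each panel) of the 5 candidates by day after weaning, for suckling pools in blue and weaning pools in orange; each point is 1 pool of 4 piglets and bars are exact 95% Poisson intervals. In every panel the 3 weaning points lie on one side of the 3 suckling points, and SSCM_18120 has its high point of 78.6 CPM in W4.

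The scale of these ratios depended on the scaling of the libraries. The most abundant miRNAs, which were miR-143-3p, miR-192 and miR-215, took 72.8% of S4 but 53.5% of W4, which leaves more of the total to every other sequence in W4. Over all sequences whose pair of libraries held 50 reads or more, the median log2 ratio by library total was 0.28 on day 1 (229 sequences), 0.83 on day 4 (244) and 0.21 on day 7 (237). With TMM factors from edgeR, which trim extreme sequences before the libraries are put on 1 scale, these medians were -0.04, -0.01 and -0.06. The medians of the candidates alone were 0.25, 0.75 and 0.47 by library total and -0.07, -0.08 and 0.20 with TMM.

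With TMM the log2 ratios of SSC6_13802 were 1.26, 1.61 and 1.88 on days 1, 4 and 7, those of SSC13_1737 were 0.84, 1.16 and 1.84, and those of SSCM_18120 were 1.19, 1.96 and 1.03. SSC9_17050 had 0.06, 0.40 and 0.74, with intervals that included 0 on every day. SSC18_6061 moved the other way with the scaling and had -0.78, -1.70 and -1.08, past a fold of 2 on days 4 and 7. No ratio of the 5 turned its sign. In TMM-scaled levels W1 and S4 of SSCM_18120 were nearly equal, at 14.7 and 14.2.

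**Figure D2:**
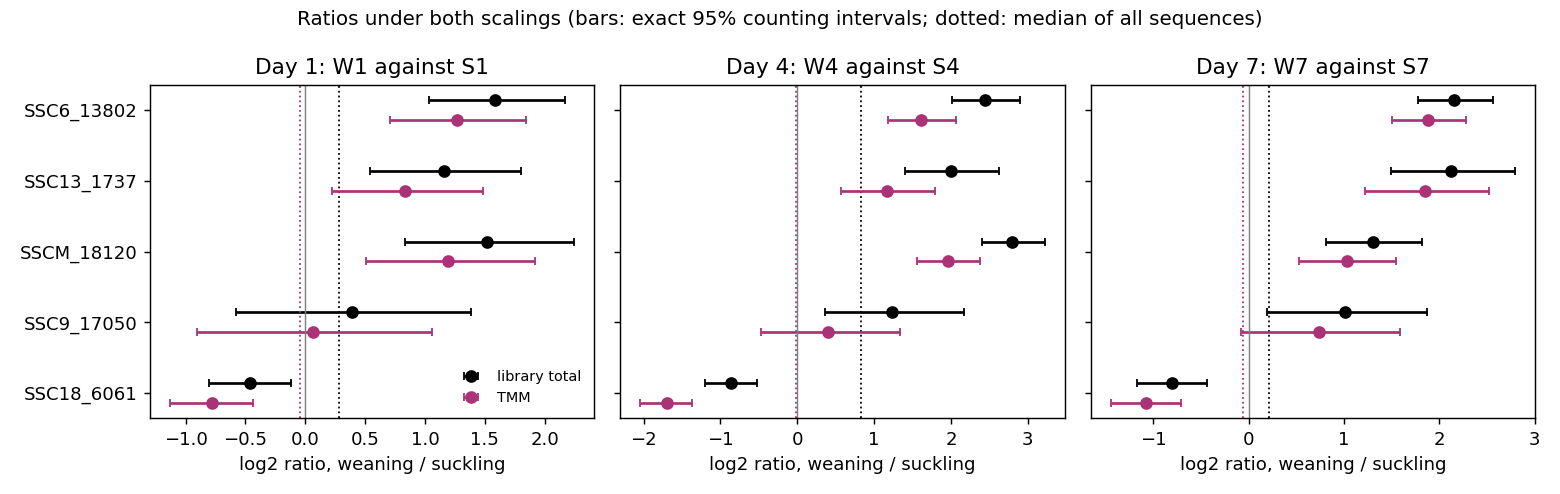
Log2 ratio of the weaning to the suckling pool (horizontal axes) for the 5 candidates on days 1, 4 and 7, by library total in black and with TMM in purple; bars are exact 95% counting intervals and dotted lines the median of all sequences whose pair held at least 50 reads. The purple points sit to the left of the black ones, most on day 4, where the median itself shifts from 0.83 to -0.01.

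Against all sequences, the background of such ratios was not small. By library total 6.11% of sequences were at least 2-fold higher in W1 than in S1, 33.6% in W4 than in S4 and 6.75% in W7 than in S7. The candidates passed that limit in 3 of 4 cases on day 1 and 4 of 5 on days 4 and 7, which draws on the same ratios by which they were chosen. With TMM the shares of all sequences were 2.18%, 4.1% and 3.38%, and the candidates past it numbered 2, 3 and 3. None was at least 2-fold lower by library total, where 2.62%, 2.87% and 3.8% of sequences were. With TMM, SSC18_6061 was so on days 4 and 7, along with 9.02% and 8.02% of sequences, and none was on day 1 (3.93%).

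Ranked from the highest ratio, SSC6_13802 was number 2, 5 and 3 of the sequences considered on days 1, 4 and 7. SSCM_18120 was 4, 3 and 6, and SSC13_1737 was 9, 9 and 4. SSC9_17050 was 45 on day 4 and 16 on day 7. Ranked from the lowest, SSC18_6061 was 17, 10 and 15. These ranks are the same for any scaling of the libraries.

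All 3 weaning pools above all 3 suckling pools, as in 4 of the 5, was a common pattern by library total. It was found in 44.6% of the 260 sequences with at least 100 reads, and in 6.92% of them with TMM. The reverse, as in SSC18_6061, was found in 3.08% by library total and 10.8% with TMM. Among the 52 candidates with that many reads, 23 were above and 1 below by library total, and 7 above and 5 below with TMM. All 5 kept their side with TMM. Over the 9 pairs of any weaning with any suckling pool, SSC13_1737 was at least 2-fold higher in 9 (7 with TMM), SSC6_13802 in 8 (7), SSCM_18120 in 7 (6) and SSC9_17050 in 4 (0), while SSC18_6061 was at least 2-fold lower in 1 (7).

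**Figure D3:**
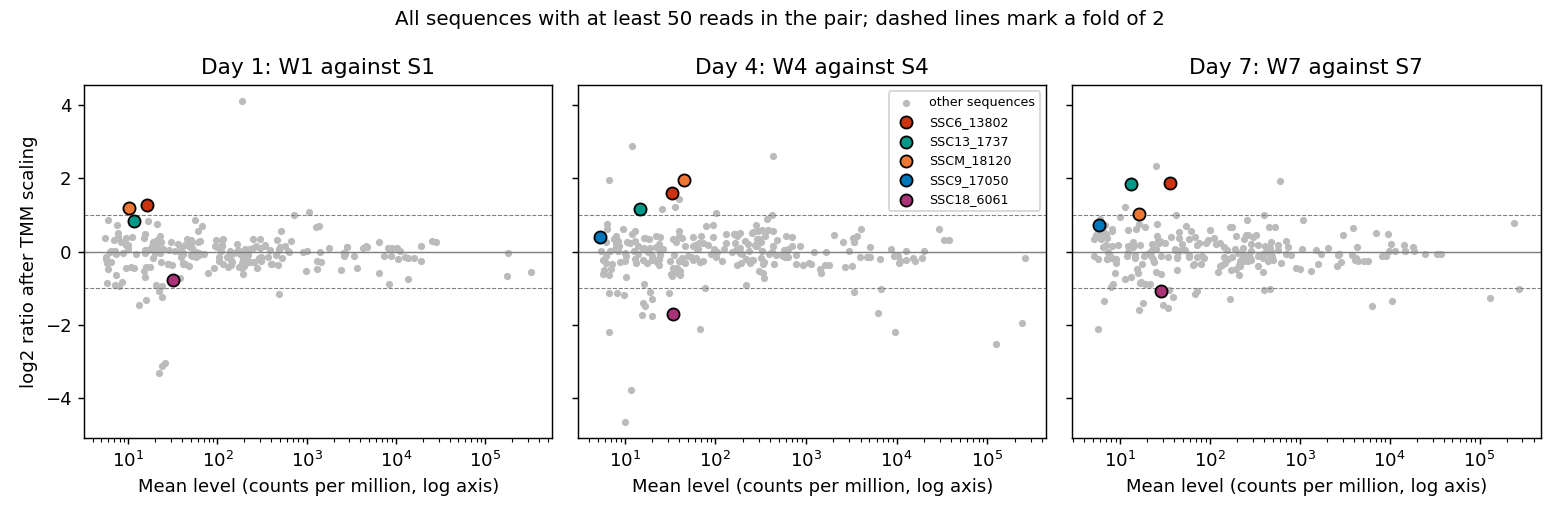
Log2 ratio of the weaning to the suckling pool after TMM scaling (vertical axis) against the mean level in CPM (log axis) for every sequence with at least 50 reads in the pair on days 1, 4 and 7; the candidates described here are the large points, other sequences are grey and dashed lines mark a fold of 2. SSC6_13802, SSC13_1737 and SSCM_18120 lie near or above the upper line on all 3 days and SSC18_6061 near or below the lower one.

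The selection asked for one direction on 2 or 3 days and set no fold limit. The 2-fold limit below is therefore not its boundary and serves only to set the 5 beside other candidates. A ratio on at least 2 days could be had for 37 candidates, of which 23 were higher and 3 lower after weaning on every day measured by library total, and 10 and 12 with TMM. At least 2-fold higher on 2 or more days were 5 candidates by library total and 3 with TMM, and at least 2-fold lower were 2 by library total and 6 with TMM. Just inside the 2-fold limit by library total was SSC9_17050, whose second highest log2 ratio was 1.01. Just outside were SSCX_18747 at 0.93 and SSC5_12608 at 0.92. SSC1_7099 also passed the limit on 2 days, with 4.44 on day 1, 1.19 on day 4 and 0.46 on day 7, and is not among the 5. On the lower side SSC18_6061 had -0.80 as its second lowest value, while SSCX_18135/SSCX_18482, names that share 1 sequence, had -2.95 and -1.85 on days 4 and 7 and is not among the 5 either. Nor is SSC1_7989, which was past the lower limit on days 1 and 4, with 57 reads in S1 and 0 in W1, and 100 in S4 and 6 in W4.

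SSC6_13802 had a near copy among the candidates, SSC10_433 from chromosome 10. The pair is shown with the differing bases in capitals.
SSC6_13802: UgugugugggcgccggacgcC
SSC10_433: AgugugugggcgccggacgcU
Counted from the 5′ end of SSC6_13802, the differences are U1A and C21U, the 19 bases between are identical, and the seed is the same. SSC10_433 had 3 reads in S1, 5 in S4 and 2 in S7, and 3 in W1, 15 in W4 and 10 in W7. Its log2 ratios of -0.05, 1.82 and 2.60 rest on 6 to 20 reads per pair, under the minimum. Only reads that both start and end inside the shared run fit both loci, and the sources used here do not say how such reads were counted. A further candidate with that seed, SSC14_3812, had 2 reads in all.

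SSC13_1737 shared its last 17 bases with SSC1_6467, a candidate from chromosome 1.
SSC13_1737: uguAgCuguggcauagaccucag
SSC1_6467: uguGgUuguggcauagaccucag
The capitals mark A4G and C6U, both inside the seed, and the other 21 of 23 bases are the same. SSC1_6467 had 35 reads in S1, 9 in S4 and 100 in W4, and 0 in W1, S7 and W7. For these 0 counts a fixed limit of 3 reads stood in place of the exact interval, giving levels up to 0.645, 0.558 and 0.675 CPM. SSC13_1737 had 32, 31 and 105 reads in the 3 pools where SSC1_6467 was found, and 74, 27 and 97 where it was not. The near copy therefore came and went between pools of the same feeding group, while SSC13_1737 stayed within 27 to 32 reads in suckling pools and 74 to 105 in weaning pools.

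SSC9_17050 lay close to a known and far more abundant miRNA, miR-378-1, which is known for roles in energy metabolism and in muscle.
SSC9_17050: cuAgacuuggagGcagaagg
miR-378-1: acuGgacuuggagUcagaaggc
SSC9_17050 starts opposite the second base of miR-378-1, and 18 of its 20 bases match, with A3G and G13U as the differences (positions in SSC9_17050). Edit distances were taken to the known pig miRNAs of these libraries alone, not to miRNAs of other species. Insertions, deletions and substitutions were counted alike, and overhanging end bases of the longer sequence were left out. Of the 256 candidates, 11.7% lay within 2 edits of a known pig miRNA, SSC9_17050 among them. The other 4 were 6 or 7 edits from their nearest known pig miRNA, like most candidates, 91.0% of which lay within 7. For SSC18_6061 this does not cover human miR-96-5p, whose seed it has. Its distance from that whole sequence was not measured.

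The ratio of SSC9_17050 to miR-378-1 was nearly the same in all 6 libraries. For each 1000 reads of miR-378-1 there were 1.58 reads of SSC9_17050 in S1, 1.48 in S4 and 1.44 in S7, and 1.51 in W1, 1.45 in W4 and 1.55 in W7. All 6 intervals overlapped (0.859 to 2.53 at their outermost), and the suckling and weaning values were interleaved. With 17 to 35 reads, counting error was larger than the differences between these values. This ratio within a library does not depend on the scaling of libraries. miR-378-1 itself had 10762, 11525 and 14571 reads in S1, S4 and S7 and 15191, 23450 and 22623 in W1, W4 and W7, with log2 ratios of 0.45, 1.26 and 0.91 by library total and 0.12, 0.43 and 0.63 with TMM. Whether reads of SSC9_17050 are altered copies of miR-378-1 was not tested.

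SSC9_17050 was 1 of 9 candidates within 2 edits of miR-378-1. Ratios of the others are given beside it as values only, since the depth does not rank them. SSC16_5054 and SSC4_12162, with 4 and 18 reads in all, are left out. SSC5_12449 ranged from 3.23 to 3.73 reads per 1000 in suckling pools and from 3.14 to 3.37 in weaning pools. For SSC12_1507, which lies wholly within miR-378-1, the ranges were 51.7 to 54.4 in suckling and 34.2 to 45.9 in weaning pools. Those of SSC18_5784 were 7.03 to 7.43 in suckling and 4.55 to 5.99 in weaning pools, and those of SSC7_15044 were 4.26 to 4.95 and 2.52 to 4.08. SSC8_16508 was higher in weaning pools, at 0.575 to 1.07 against 0.279 to 0.549 in suckling pools. SSCX_18747, named above as just outside the 2-fold limit, ranged from 108 to 260 in suckling pools and from 107 to 119 in weaning pools.

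SSC18_6061 has the seed of miR-96, which in mammals is made from 1 transcript with miR-182 and miR-183, a trio known from sensory organs and also from epithelia. In the RefSeq gene table for pig (assembly 11.1), MIR183, MIR96 and MIR182 follow each other on chromosome 18, the chromosome of SSC18_6061. The 3 sequences of the tables are shown with the seed in capitals to compare them.
SSC18_6061: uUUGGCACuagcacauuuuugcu
miR-182: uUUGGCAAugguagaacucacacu
miR-183: uAUGGCACugguagaauucacug
Each of miR-182 and miR-183 has 6 of the 7 seed bases of SSC18_6061, the differences being C8A in miR-182 and U2A in miR-183. No mature sequence of pig miR-96 was at hand to set beside SSC18_6061.

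The ratios of miR-182 and miR-183 are set beside those of SSC18_6061, whose own distance from their genes was not measured. miR-182 had 17165, 19582 and 21621 reads in S1, S4 and S7 and 16298, 13752 and 18563 in W1, W4 and W7, with log2 ratios of -0.12, -0.27 and 0.05 by library total. miR-183 had 1246, 1455 and 2017 reads in the suckling pools and 1425, 1757 and 1775 in the weaning pools, with 0.14, 0.51 and 0.09. With TMM all 6 ratios were below 0, at -0.45, -1.11 and -0.22 for miR-182 and -0.18, -0.33 and -0.18 for miR-183, closer to 0 than those of SSC18_6061 on each day.

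Within a library, there were 9.67, 11.9 and 9.07 reads of SSC18_6061 per 1000 reads of miR-182 in S1, S4 and S7, and 7.67, 7.93 and 5.01 in W1, W4 and W7. Per 1000 reads of miR-183 there were 133, 161 and 97.2 in the suckling pools and 87.7, 62.0 and 52.4 in the weaning pools. The 3 weaning values were below the 3 suckling values for both, although the nearest intervals overlapped (W4 6.50 to 9.57 and S7 7.84 to 10.4 for miR-182, W1 72.5 to 105 and S7 83.5 to 113 for miR-183). These ratios use the contrast by which SSC18_6061 was chosen and describe it only.

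**Figure D4:**
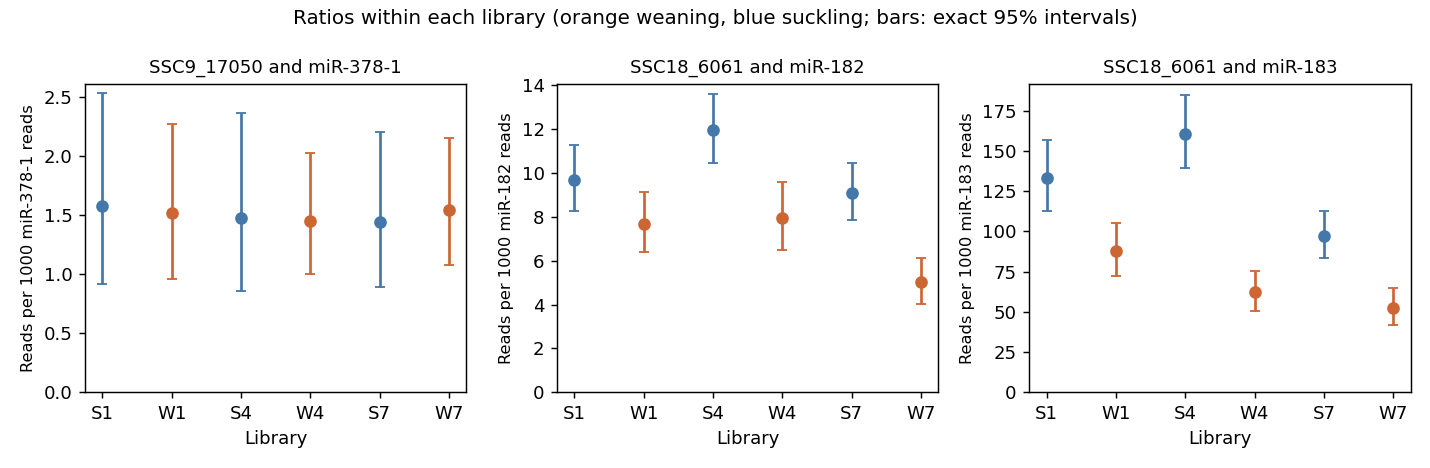
Reads of SSC9_17050 per 1000 reads of miR-378-1 and reads of SSC18_6061 per 1000 reads of miR-182 and of miR-183 (vertical axes from 0) in each of the 6 libraries, suckling in blue and weaning in orange, with exact 95% intervals. The first ratio stays between 1.44 and 1.58 in all libraries, whereas both ratios of SSC18_6061 are lower in every weaning library than in every suckling library.

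Profiles over the 6 libraries were compared by the root mean square difference of centred log2 levels, in which 0 means parallel profiles, for 294 other sequences with at least 50 reads. miR-378-1 was the nearest to SSC9_17050 at 0.05, ahead of SSC5_12449 at 0.10 and miR-181a-1 at 0.12 (median of all 0.36). With 17 to 35 reads per library, the order of such close values is not resolved by the depth. The nearest to SSC6_13802 were miR-212 at 0.34, SSC8_16508 at 0.39 and miR-221-5p at 0.41 (median 0.92). The same 3 sequences were the nearest to SSCM_18120, with miR-221-5p at 0.43, SSC8_16508 at 0.50 and miR-212 at 0.51 (median 0.98).

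These neighbours were themselves rare. miR-212 had 3 to 24 reads per library, SSC8_16508 had 3 to 25 and miR-221-5p, which had more, 25 to 184. SSC13_1737 was nearest to SSC12_1105 at 0.24, miR-95 at 0.29 and SSC4_11618 at 0.31 (median 0.72), with 5 to 36 reads per library. SSC18_6061 was nearest to miR-210, which is induced by low oxygen in many cells, at 0.22, miR-874 at 0.24 and miR-194a, a miRNA of gut epithelium, at 0.25 (median 0.67). Between the candidates themselves the closest pair was SSC6_13802 and SSC13_1737 at 0.46, and SSC18_6061 lay at 0.86 or more from each of the others.

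Marker miRNAs of other cell types were read beside these ratios. Summed levels of 5 epithelial miRNAs found out of 9 listed (miR-192, miR-194a, miR-194b-5p, miR-215 and miR-429) were 542545 to 578984 CPM in suckling pools and 225470 to 478223 CPM in weaning pools, ranges that do not overlap. miR-192 and miR-215 dominate that sum, and the listed miR-429 had log2 ratios of 0.03, 0.25 and 0.31 on days 1, 4 and 7 by library total and -0.30, -0.59 and 0.04 with TMM. All 5 smooth muscle miRNAs were found, at 159268 to 204951 CPM against 201703 to 330279 CPM, and all 6 leukocyte miRNAs, at 2620 to 4595 CPM against 3483 to 7291 CPM, with overlapping groups in both lists, although on each of the 3 days the weaning sum was above the suckling sum. Both arms of miR-126, the endothelial marker, summed to 3849 to 5725 CPM against 5890 to 7520 CPM, with no overlap by library total. The 3 red cell miRNAs, at 451 to 604 CPM against 455 to 622 CPM, and miR-122 of liver, at 10.5 to 20.1 CPM against 10.9 to 23.2 CPM, overlapped. With TMM the median log2 ratios of the lists on days 1, 4 and 7 were -0.68, -1.95 and -1.27 for epithelium, -0.05, -0.18 and 0.46 for smooth muscle, 0.14, 0.67 and 0.22 for leukocytes, and 0.14, 0.10 and -0.11 for endothelium, so that smooth muscle and endothelium had no single direction. In RNA of whole tissue, a change in the number of cells of a type and a change of RNA per cell cannot be told apart, and the part of these markers in the ratios of the 5 candidates was not tested.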

How the data were processed

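Small RNA of 15 to 32 nt was sequenced, and the authors trimmed the reads, discarded other classes of RNA, aligned without mismatches to the draft pig genome (build 9.2) with Bowtie (0.12.2 by the submitters' processing notes), took known miRNAs from miRBase 19.0 and used miRDeep to predict candidates. Each library has 1 deposited table of unnormalized read counts, with sequences but no names. The step from alignments to counts is not stated in the sources used here.

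Sequences took a candidate's name when identical to the sequence listed for it, and a known name when at least 20 reads in all matched the listed counts. CPM used the table total. TMM came from edgeR 4.0.16 and size factors from DESeq2 1.42.0 (R 4.3.3), on 290 sequences with at least 10 reads in 3 libraries, for scaling alone. Ratios needed 50 reads in the pair. Intervals (Python 3.11.15, scipy 1.17.1), Poisson for levels and conditional binomial for ratios, were tested on simulated data and cover counting error only, as PCR reads without molecular identifiers are not independent molecules. Profiles used a pseudocount of 0.5.

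With 1 library per condition no test was made. The candidates, lists and alternatives were chosen with earlier results of these data known. Sequences were named by rule: the 3 nearest profiles of each candidate, sequences with its seed or a shared run of at least 12 bases, miR-182 and miR-183, candidates beside the 2-fold limit, and markers. miR-378-1 came in as a nearest profile, and the 9 candidates that resemble it were compared after its values were seen. The study's FPKM, test and RT-qPCR values were not used.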

Additional observations from a re-analysis of the deposited data

How the results depend on the processing

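No ratio or mean ratio of the 5 candidates turned its direction under the alternatives run. With TMM, ratios of miR-182 (day 7), miR-183 (all days) and miR-429 (days 1 and 4) did, among others. So did the median ratios of the smooth muscle list on days 1 and 4, the red cell list on day 4 and the endothelial list on day 7. The balance of candidates higher and lower on every day turned as well, from 23 and 3 to 10 and 12. No paired test over the 3 days was run, because the candidates were chosen on this very contrast. The daily ratios already compare libraries of the same day. By library total, 3, 4 and 4 candidates were at least 2-fold higher on days 1, 4 and 7, and 0 were lower. With a fold of 3 the higher ones numbered 1 on day 1 and 2 on day 7. Lower on day 4 was 1 candidate with TMM, DESeq2 size factors, a total that leaves out miR-143-3p, miR-192 and miR-215, clean reads or a fold of 1.5, and lower on day 7 was 1 candidate with the same settings except clean reads, always SSC18_6061. Of 75 single ratios under other scalings or with rows summed, 63 stayed within their counting interval and 12 did not, all 12 on day 4. With each library left out in turn, the log2 ratio of mean levels was 1.93 to 2.45 for SSC6_13802, 1.65 to 1.91 for SSC13_1737, 1.15 to 2.55 for SSCM_18120, 0.78 to 1.09 for SSC9_17050 and -0.79 to -0.61 for SSC18_6061. Nearest profiles cannot change with TMM, since the scaling of a library cancels when sequences are compared within it. Depth limits SSC9_17050 most, with 17 to 35 reads per library.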
